A study of Mus musculus with 5 samples.

Results

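The 47 genes described here encode subunits of voltage-gated and related potassium, sodium and calcium channels that were measurable during the conversion of mouse embryonic fibroblasts (MEFs) in 5C medium. They are the mouse genes whose symbol starts with Kcn, Scn or Cacn in the standard pattern for channel subunits and that reached 10 expected counts in at least 1 of the 5 libraries. Of 132 genes with such a symbol, 85 had fewer than 10 expected counts in every library, 22 of them with 0 counts throughout, and are not among the 47. Scn2a was just inside this limit, with at most 11.7 expected counts. Kcnj8 was just outside it, with at most 8. Of 27729 genes of all kinds, 13346 reached the same limit.

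RNA was taken from MEFs of ICR mice in serum-containing fibroblast medium (day 0) and from the same kind of culture on days 2, 5, 10 and 14 after the change to 5C medium, a defined medium that the labels name 6C and that the study used to turn fibroblasts into neuron-like cells. MEFs are a mixed primary culture, made in the study from embryos without the head and the internal organs. The study's methods also describe a short trypsin step that took away weakly attached cells able to form neurons. The labels name no transgene and no sort, so each library is an average over the cells of its well. There was 1 library per day, so no difference between days has a replicate check and no test was possible. The labels give day 14 for the last library, whereas the treatment text beside them names day 15, and they give a lower seeding density than the study's methods. Expected counts, the numbers of reads that RSEM assigns to a gene, were fewest on day 2 (2253748 in all) and most numerous on day 0 (3890334), and the 3 counts used as a floor correspond to 0.771 to 1.33 counts per 1000000.

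Ion channels are membrane proteins whose pore-forming alpha subunits let potassium, sodium or calcium ions pass, and whose auxiliary subunits change their trafficking and gating. Potassium channels hold the membrane near its resting voltage and end action potentials, voltage-gated sodium channels start action potentials, and voltage-gated calcium channels couple depolarization to secretion, contraction and transcription. Fibroblasts and glial cells express several of these genes without firing action potentials, so channel transcripts alone do not mark a neuron.

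Channel RNA was highest on day 10. From day 0 to day 14 the 47 genes together had 1171, 850, 2463, 5061 and 3263 expected counts in the successive libraries. In TPM, which are values per length and per 1000000 transcripts, their sum was 161, 186, 516, 804 and 627 on the same days. Fewer cells of a type and less RNA per cell cannot be told apart in such bulk libraries. Kcna6, a potassium channel, and Scn7a, an atypical sodium channel, went from 10 expected counts each on day 0 to 1127 and 1099 on day 10. The tandem-pore potassium channel Kcnk13 was highest on day 14. The potassium channel subunits Kcnab1 and Kcnj4 were lower on day 14 than on day 0.

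**Figure D1:**
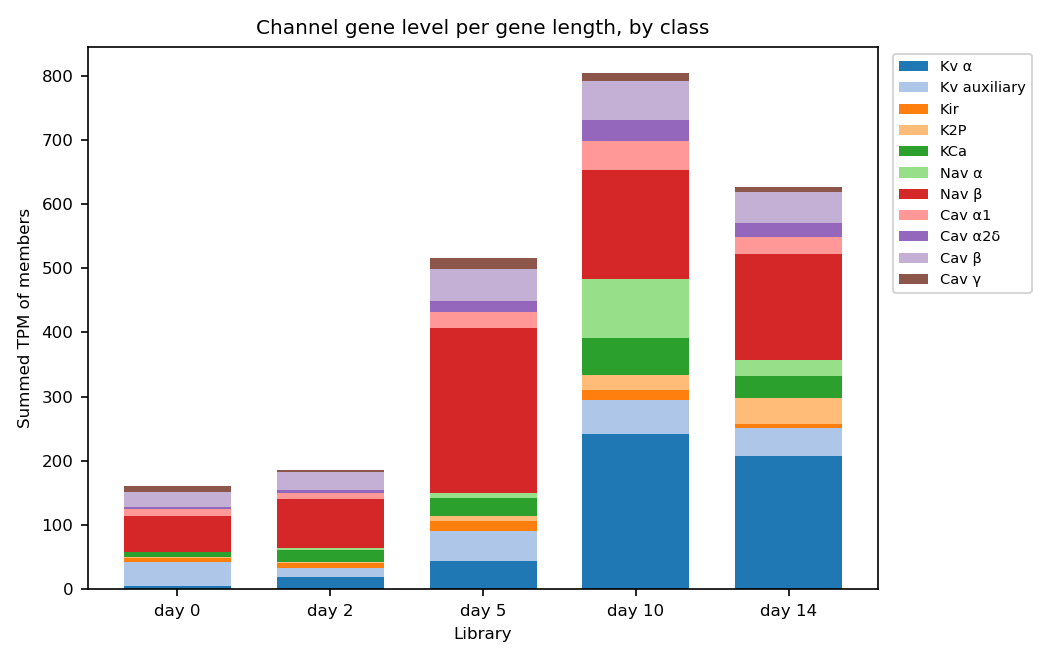
Stacked bars of summed TPM (linear axis from 0) of the 47 measured genes by channel class in the libraries of days 0, 2, 5, 10 and 14, with 1 library per day and no error bars. Kv and Nav stand for voltage-gated potassium and sodium channels, Cav for calcium channels, Kir for inward rectifiers, KCa for calcium- and sodium-activated and K2P for tandem-pore potassium channels. The Kv alpha class had 4.84 TPM on day 0 and 242 TPM on day 10, and the Nav alpha class 0.74 and 91.3 TPM.

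The 250 bases before the annotated start of 4 of these genes are shown because the results turn on 3 of them as large rises and on Kcnj4 as a fall. The sequences are from RefSeq (GRCm38.p6), 5′ to 3′ on the strand of the gene, at chr6:126740675-126740924 (minus strand) for Kcna6, chr2:66784911-66785160 (minus strand) for Scn7a, chr12:99964249-99964498 (plus strand) for Kcnk13 and chr15:79505242-79505491 (minus strand) for Kcnj4. Capitals mark each match, on either strand, of AACAAT, a form of the core that Sox factors bind. They also mark another form of this core, ACAAAG, as well as the GC box with the letters GGGCGG and the TATA box with the letters TATAAA.
Kcna6: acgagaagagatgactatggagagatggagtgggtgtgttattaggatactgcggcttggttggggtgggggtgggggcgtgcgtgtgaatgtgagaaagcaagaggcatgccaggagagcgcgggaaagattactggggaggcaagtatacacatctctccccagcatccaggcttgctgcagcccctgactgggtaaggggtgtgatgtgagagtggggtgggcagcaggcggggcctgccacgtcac
Scn7a: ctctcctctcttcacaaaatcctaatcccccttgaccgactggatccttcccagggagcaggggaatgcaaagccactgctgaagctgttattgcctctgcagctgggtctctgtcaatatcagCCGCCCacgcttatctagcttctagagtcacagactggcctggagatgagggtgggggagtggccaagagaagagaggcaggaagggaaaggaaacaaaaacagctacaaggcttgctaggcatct
Kcnk13: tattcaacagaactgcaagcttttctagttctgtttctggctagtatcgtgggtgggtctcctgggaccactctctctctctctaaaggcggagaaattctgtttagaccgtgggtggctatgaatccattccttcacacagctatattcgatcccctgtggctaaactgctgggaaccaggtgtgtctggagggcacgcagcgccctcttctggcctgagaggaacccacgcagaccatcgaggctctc
Kcnj4: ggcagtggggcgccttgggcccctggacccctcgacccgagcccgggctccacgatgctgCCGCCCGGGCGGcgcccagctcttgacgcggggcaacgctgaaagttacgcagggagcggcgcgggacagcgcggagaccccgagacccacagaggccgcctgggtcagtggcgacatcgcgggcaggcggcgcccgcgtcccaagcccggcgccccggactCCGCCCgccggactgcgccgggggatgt

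The window of Kcnj4 held 3 matches of GGGCGG and was 77.2% G and C, that of Scn7a held 1, and the windows of Kcna6 and Kcnk13 held no match of the 4 motifs. Windows were found for 38 of the 47 genes, 59 in all since a gene can have several starts. GGGCGG was in 25 of these 59 windows and in 32.7% of all 32851 promoter windows of this length. ACAAAG was in 15 of 59 and in 16.5% of all windows, AACAAT in 4 of 59 and in 9.42%, and TATAAA in 2 of 59 and in 12.4%. A match is only a description of the letters in the window.

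For each day, normalized counts (expected counts scaled by the TMM method of edgeR) were compared with day 0 as log2 ratios with a pseudocount of 1, and a gene was counted as up or down when it passed 2-fold. Intervals are exact 95% Clopper-Pearson intervals of a gene's rounded counts in the compared libraries, without a pseudocount, and cover counting error only. Folds are ratios of normalized counts. The words rose and fell are kept for single genes that passed 2-fold with an interval that leaves out no change.

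On day 10, 28 of the 47 genes (59.6%) were over 2-fold up, beside 28.7% of all 13346 genes, and 3 were down, beside 22.3%. For all 28 the interval left out no change, which held for 26.7% of all genes. The median log2 change of the 47 was 1.88, or 1.77 with genes at 0 set to the floor of 3 counts, and that of all genes was 0.14. On day 14, 26 of 47 were up, beside 24.5% of all genes, and 8 were down, beside 19.9%, with a median of 1.19 against 0.07. With intervals that leave out no change, 22 were up on day 14, beside 22.1% of all genes.

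The way the genes were chosen bears directly on these numbers. Of the 47, 27 had fewer than 10 expected counts on day 0 and were measurable only through a later day, so a higher value later was required of them. Among the other 20, with 10 or more counts on day 0, 6 were up on day 10 (30%), beside 19.3% of all 11151 genes with as many counts on day 0. In the same 20 genes 3 were down on day 10, beside 26.2%, and the median log2 change was 0.23 against −0.12. On day 14, 7 of the 20 were up, beside 16%, and 5 were down, beside 22.9%. On day 5, 7 of the 20 were up, beside 11.6%, and 2 were down, beside 15.8%. The 6 that were up on day 10 were Kcna6, Kcnd1, Kcne4, Scn7a, Cacna1h and Cacna2d1.

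The earlier days showed fewer changes. On day 2, 16 of 47 genes were up, beside 15.2% of all genes, and 5 were down, beside 13.1%. Only 6 of these 16 had an interval that left out no change, beside 11.6% of all genes, which is 12.8% of the 47 and close to the background. The 6 were Kcna6, Kcnd1, Kcnh2, Kcnj15, Kcnn4 and Cacnb1. The 3 falls of this kind on day 2, beside 10.1% of all genes, were Kcnab1, Cacna1h and Cacng7. Among the 20 genes measurable on day 0, 4 were up on day 2, beside 9.04%, and 4 were down, beside 13.7%. On day 5, 25 of 47 were up, beside 20.2%, and 3 were down, beside 13.6%, with 16 rises whose interval left out no change, beside 17.2% of all genes. From day 10 to day 14 more genes were down than up, with 11 down beside 8.33% of all genes and 5 up beside 4.73%. Among the 45 genes with 10 or more counts on day 10 itself, 11 were down, beside 8.08% of all such genes, and 4 were up, beside 3.26%. Some of these genes were measurable only through day 10, so a lower count on day 14 was required of them. With a limit of 30 counts in at least 1 library, over 28 genes, 4 were up and 2 down from day 10 to day 14.

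By their highest normalized count, 20 of the 47 genes peaked on day 10, beside 26.4% of all genes. A peak on day 5 was seen in 10 genes, beside 10.6%. The library of day 14 held the peak of 8 genes, beside 17.6%, that of day 2 the peak of 5, beside 21.5%, and that of day 0 the peak of 4, beside 23.8%. Over the whole course 34 genes passed 2-fold up on 1 or more days, beside 37.8% of all genes. In the other direction 11 passed it down, beside 34.7%, and 8 passed it in neither direction, beside 32.8%. These counts and peaks include the 27 genes with fewer than 10 expected counts on day 0. A higher count on a later day was required of those 27, and peaks were not counted for the other 20 alone.

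**Figure D2:**
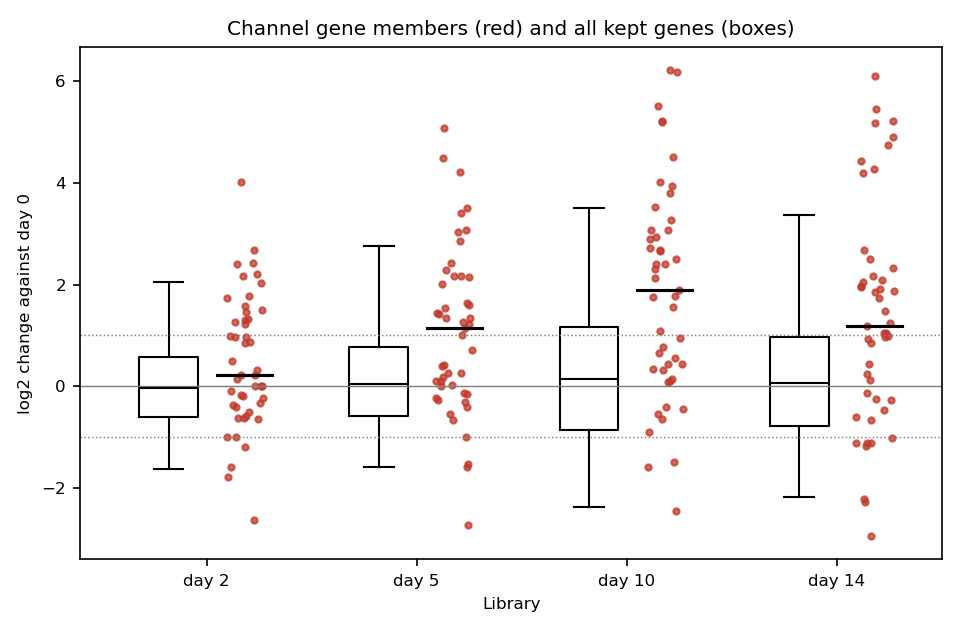
Log2 change of normalized counts against day 0 in the libraries of days 2, 5, 10 and 14 (dotted lines at 2-fold). Boxes show the median and quartiles of all 13346 genes with whiskers to the 5th and 95th percentiles, red points are the 47 channel genes and the bars across them their median, which was 1.88 on day 10 where the median of all genes was 0.14.

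Channel genes are long, and long genes as a whole were higher on the later days. The median transcript length was 3919 bases in the 47 genes and 2525 in all 13346, and when all genes were split by length into 5 groups of equal size, 35 of the 47 lay in the 2 groups of longest genes. On day 10 the median log2 change of all genes went from −1.15 in the shortest group to 0.92 in the longest, where 48.0% of all genes were over 2-fold up. In the longest group 17 of 22 channel genes were up, with a median of 2.40, and in the next group 7 of 13 were up, beside 35.8% of all genes there. The mean length of the gene behind a read was 2279, 2127, 2657, 3351 and 2955 bases in the libraries in order of day. After the change of each gene was centred on the median of its length group, 27 of the 47 were up and 6 down on day 10, beside 23.8% and 18.9% of all genes centred in the same way, with a median of 1.38. On day 14, 23 were up and 10 down, beside 22.2% and 17.9%, with a median of 0.98. All these counts include the 27 genes with fewer than 10 expected counts on day 0, of which a higher value later was required. Centred values were not counted for the other 20 genes alone. The part of RNA length or integrity in these changes was not tested.

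**Figure D3:**
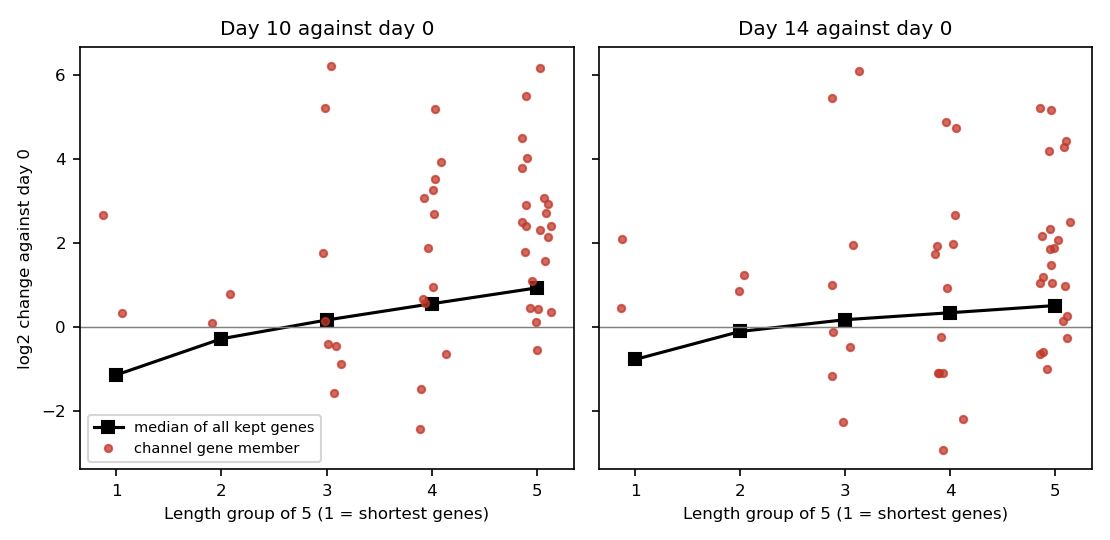
Log2 change of normalized counts on day 10 (left) and day 14 (right) against day 0 in 5 equal groups of gene length, from shortest (1) to longest (5), with the median of all genes of each group as squares and the channel genes as red points. On day 10 the squares run from −1.15 in the shortest group to 0.92 in the longest, and 35 of the 47 channel genes lie in groups 4 and 5.

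The voltage-gated potassium channel alpha subunits, which form the pores of delayed rectifier and A-type currents, included the largest rise. Of 40 such genes 10 were measurable. On day 10, 9 of these were over 2-fold up, beside 28.7% of all genes, and none down, beside 22.3%. A higher count later was required of those with fewer than 10 counts on day 0, such as Kcna1, Kcna2, Kcna4 and Kcnh2. The summed TPM of the class was 4.84, 18.9, 43.5, 242 and 208 from day 0 to day 14. Kcna6 made up most of it from day 5 on, whereas Kcnd1 had the higher TPM of the pair on days 0 and 2.

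Kcna6 encodes a Shaker-type delayed rectifier subunit and lies on chromosome 6 from 126708329 to 126740674 (GRCm38, minus strand). From day 0 to day 14 it had 10, 24, 130, 1127 and 834 expected counts. Each day from day 2 was above day 0, with the step from day 5 to day 10 being the largest in counts. The normalized count was 81.3-fold higher on day 10 than on day 0 (interval 44.1 to 170.0) and 75.3-fold higher on day 14, and between days 10 and 14 the interval of the change included no change. At 184 TPM it had the highest level per length of the 47 genes on day 10. It shares 2355 exonic bases with Gm26673 on the opposite strand, a gene listed at 0 counts in all 5 libraries, and with an unstranded kit the reads of such a pair cannot be told apart.

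Its neighbour Kcna1, another delayed rectifier subunit known from the juxtaparanodes of myelinated axons, had 3, 6, 3, 41 and 85 expected counts from day 0 to day 14. It rose later than Kcna6, being 9.86-fold higher on day 10 (interval 3.15 to 49.8), 25.6-fold higher on day 14 and 2.60-fold higher on day 14 than on day 10. The third gene of this cluster, Kcna5, had at most 2 counts in any library. Kcna5, Kcna1 and Kcna6 lie within 208124 bases, so the rise was not shared by the whole cluster.

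Kcna4, the A-type member of the Shaker family, had 2, 1, 0, 26 and 71 expected counts. It was 32.1-fold higher on day 14 than on day 0 (interval 8.56 to 270, from 2 counts on day 0) and 3.42-fold higher on day 14 than on day 10. Kcna2, which forms channels together with Kcna1 in axons, was instead confined mostly to day 10. It had 0 counts up to day 5, then 50 and 6, and was at least 12.0-fold higher on day 10 than on day 0 and 6.66-fold lower on day 14 than on day 10. Its neighbours on chromosome 3, Kcna3, Kcna10 and Kcnc4, had at most 1 count in any library. The 4 measured Shaker genes thus fell into those that held or gained after day 10 (Kcna6, Kcna1 and Kcna4) and Kcna2, which did not.

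Kcnh2 encodes the channel of the rapid delayed rectifier current in the heart and is also expressed in dividing cells. It had 2, 26, 75, 153 and 144 expected counts, and in normalized counts it was higher on each of days 2, 5 and 10 than in the library before. It was 55.2-fold higher on day 10 than on day 0 (interval 15.0 to 460, from 2 counts on day 0). Its rise on day 2 was shared by Kcnd1 and Kcna6. The largest step of Kcna6 in counts came later, from day 5 to day 10.

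Kcnd1, an A-type channel gene of the Shal family, had 25, 75, 64, 75 and 58.4 expected counts. Scaled to library size this was 24.7 normalized counts before the medium change, 136 on day 2 and 52.2 to 56.0 on the later days. It was thus highest on day 2, and 2.17-fold higher on day 10 than on day 0. Kcnd3 and Kcnh1 were up on day 10 with at most 18 expected counts each, and Kcnq5 was within 2-fold on that day.

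**Figure D4:**
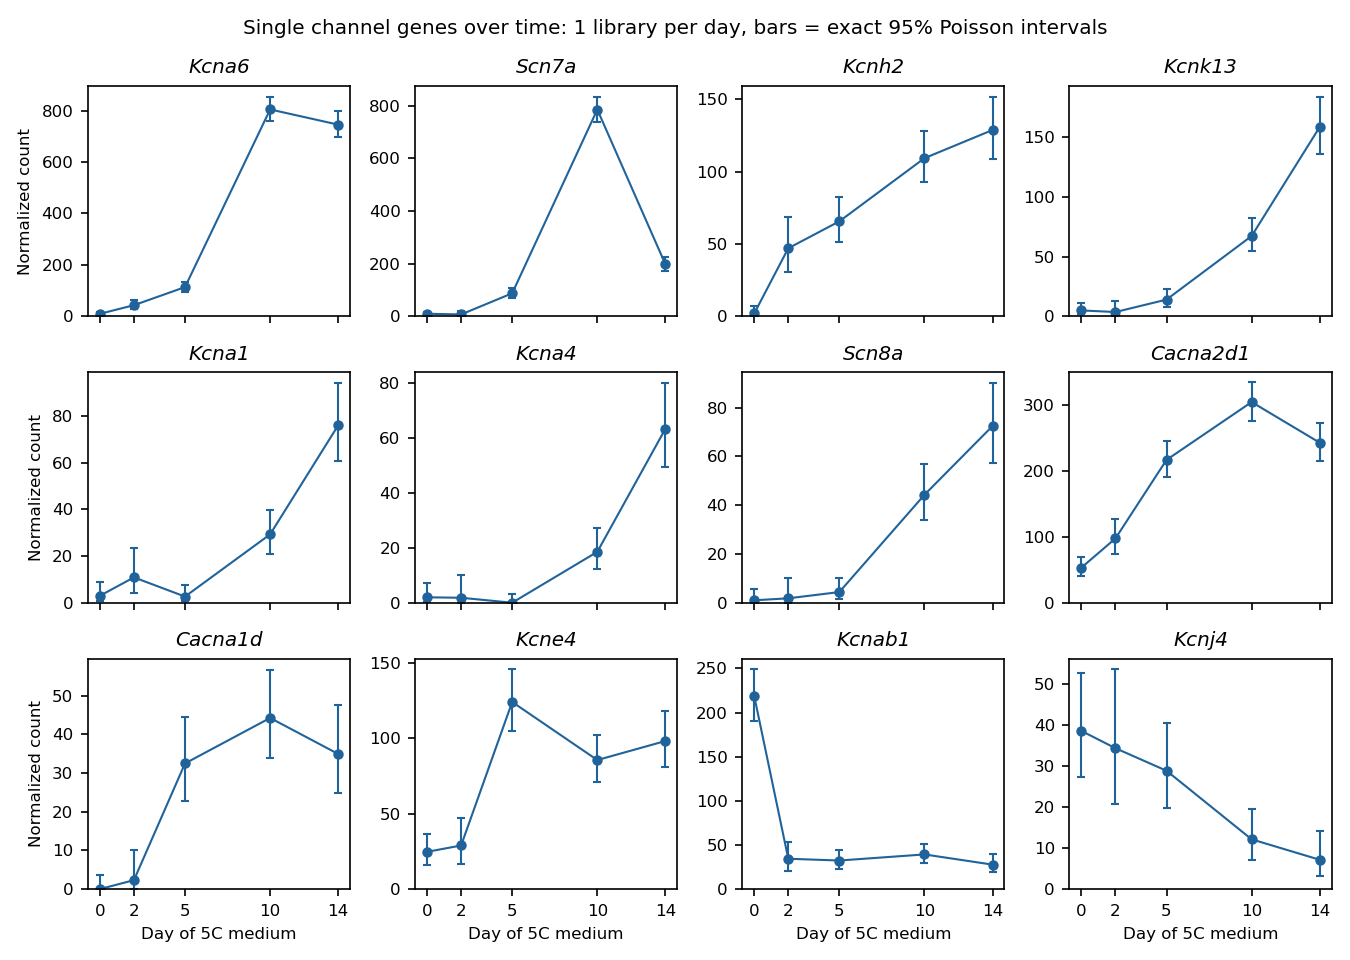
Normalized counts (linear axes from 0, scaled separately) of 12 channel genes against the day of 5C medium, 1 library per day, with exact 95% Poisson intervals as bars, which cover counting error only. On days 0, 10 and 14 Kcna6 had 9.90, 804 and 745, Scn7a had 9.90, 785 and 198, and Kcnab1 had 219, 39.3 and 27.7.

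The auxiliary subunits of these channels differed from gene to gene. Of 11 genes 5 were measurable, and on day 10 only Kcne4 was up and only Kcnab1 was down, beside 28.7% and 22.3% of all genes. Both this class and the alpha subunits hold genes that were measurable only through a later day. The directions of the 2 classes can therefore not be compared. Kcnab1, a cytoplasmic beta subunit that binds Shaker-type alpha subunits and speeds their inactivation, had 221, 19, 37, 55 and 31 expected counts. The library of day 0 stands above all later ones. It was already 6.36-fold lower on day 2 and 7.89-fold lower on day 14 (interval 5.40 to 11.9). Its level per length was 26.9 TPM on day 0 and 6.29 TPM on day 14.

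Kcne4, a single-pass subunit that inhibits several potassium channels, had 25, 16, 142, 120 and 110 expected counts. The libraries of days 5, 10 and 14 were all above those of days 0 and 2. It was 3.46-fold higher on day 10 than on day 0 (interval 2.24 to 5.56). Kcnab2 and Kcnab3, the other cytoplasmic beta subunits, and the calcium-binding Kcnip3, were within 2-fold of day 0 on day 10 with at most 28 expected counts in any library.

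The inward rectifiers, which pass potassium best near the resting voltage, had 3 measurable genes of 15. Kcnj15 had 9.01, 24, 80.7, 67.0 and 45 expected counts and was 5.37-fold higher on day 10 than on day 0 (interval 2.67 to 12.3). Kcnj4, a strong rectifier known from brain and muscle, had 39, 19, 33, 17 and 8. After scaling for depth its value on day 2 was close to that on day 0, and the fall came after day 5, with 5.40-fold less on day 14 than on day 0 (interval 2.49 to 13.4). Kcnj2, the cardiac strong rectifier, reached 16.9 expected counts on day 10 and had at most 7 on the other days.

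The tandem-pore channels carry voltage-independent background potassium currents, and 3 of 14 were measurable. Kcnk13, which is known from microglia, lies on chromosome 12 from 99964499 to 100062682 (GRCm38, plus strand). It had 5, 2, 16, 94 and 177 expected counts. Unlike most of the 47 genes it was highest on day 14, when it was 32.0-fold higher than on day 0 (interval 13.4 to 99.7) and 2.36-fold higher than on day 10. Kcnk5, an acid-sensitive channel, had 0, 3, 20, 20 and 32 counts and was at least 9.63-fold higher on day 14 than on day 0. Kcnk2, a stretch-sensitive channel, had between 3 and 15 counts.

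Macrophage markers moved as well during the course. All 13 of the list reached 10 expected counts, and their summed normalized counts were 288, 2265, 4047, 2499 and 1867 from day 0 to day 14, with none of them at 0 throughout. Lyz2 carried most of the sum on day 5, with 2738. From day 5 to day 10 the normalized counts of 5 of the 13 markers were higher, as those of Kcnk13 were, among them Cd5l with 224 and 385, and 8 were lower. From day 10 to day 14, when Kcnk13 rose, 0 of the 13 were over 2-fold up and 3 were down, beside 4.73% and 8.33% of all genes. The part of the macrophage markers in the values of Kcnk13 was not tested.

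Calcium-activated potassium channels link intracellular calcium to potassium outflow. Of 12 genes in this class and its sodium-activated relatives, 5 were measurable and 3 were up on day 10, beside 28.7% of all genes. A higher count later was required of any with fewer than 10 counts on day 0. Kcnmb4, the beta subunit that slows the large-conductance channel in neurons, had 9, 3, 17.3, 86 and 45.9 expected counts. It was 6.90-fold higher on day 10 than on day 0 (interval 3.47 to 15.6) and a little lower on day 14 than on day 10, with a log2 change of −0.57 (interval −1.13 to −0.05). Its exons overlap those of Kcnmb4os2 on the opposite strand, which had at most 2.08 counts.

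Kcnma1, the pore of the same large-conductance channel, had 1, 0, 0, 22 and 6.25 counts. Both subunits were thus highest on day 10, with a pore transcript of 3.44 TPM beside 38.5 TPM of the beta subunit. Kcnn4, the intermediate-conductance channel of immune cells and proliferating fibroblasts, had 19, 58, 67, 45.8 and 39 counts. After scaling it was highest on day 2, with 105 normalized counts against 18.8 on day 0, and less than 2-fold above day 0 on days 10 and 14.

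The sodium channel alpha subunits form the pore of the action potential current. Of 10 genes 4 were measurable and 3 of these were up on day 10, beside 28.7% of all genes. Of these 3, Scn8a and Scn9a had fewer than 10 counts on day 0, so a higher count later was required of them. The summed TPM of the class was 0.74, 2.89, 8.84, 91.3 and 24.9 from day 0 to day 14. Scn7a, an atypical member that senses sodium concentration and is known from Schwann cells and other glia rather than from firing neurons, made up most of it from day 5 on. It lies on chromosome 2 from 66673425 to 66784914 (GRCm38, minus strand). It had 10, 4, 99.99, 1099 and 221 expected counts. The normalized count was 79.3-fold higher on day 10 than on day 0 (interval 43.0 to 166) and its log2 change on day 14 was 4.19 (interval 3.41 to 5.40). Between days 10 and 14 it fell 3.97-fold (interval 3.44 to 4.61), whereas the change of Kcna6 over the same step was 1.08-fold lower (interval 0.986 to 1.18).

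Scn8a, the main channel of nodes of Ranvier and of the axon initial segment, had 1, 1, 5, 62 and 81.1 expected counts. It was 44.7-fold higher on day 10 than on day 0 (interval 7.74 to 1795, from 1 count on day 0) and did not share the fall of Scn7a, being 1.64-fold higher on day 14 than on day 10. Scn9a, known from sensory neurons, had 21.3 counts on day 10 and at most 4 in the other libraries. Scn9a, Scn1a and Scn7a lie next to each other on chromosome 2.

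The other sodium channel pores were at or near the floor. Scn2a, of central neurons, had 6.02, 2, 7, 11.7 and 5.36 expected counts, without a change past 2-fold. Scn1a and Scn3a, also of central neurons, had at most 1 count. Scn4a of skeletal muscle and Scn10a and Scn11a of nociceptors had 0 in all libraries. These genes resemble each other, and fractional counts such as those of Scn2a show that RSEM divided reads between genes, so their low values are uncertain.

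The sodium channel beta subunits are single-pass proteins that modulate the pores and also act as cell adhesion molecules, and 3 of 4 were measurable. Scn3b had 5, 6, 76, 52.0 and 24 expected counts and was highest on day 5. It was 7.50-fold higher on day 10 than on day 0 (interval 3.02 to 24.1). Scn4b had 3, 1, 19, 40 and 24 counts and was 9.62-fold higher on day 10. Scn3b thus peaked on day 5, before the pores Scn7a and Scn9a, and Scn4b on the same day as these pores. The pore Scn8a was instead highest on day 14, with 72.5 normalized counts against 44.3 on day 10.

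Of the 10 calcium channel alpha1 pore genes, 7 were measurable. On day 10, 4 of these were up, beside 28.7% of all genes, and none was down, beside 22.3%. Cacna1d and Cacna1e had fewer than 10 counts on day 0, so a higher count later was required of them. Cacna1d, an L-type channel that opens at low voltage, had 0, 1.28, 37.1, 62 and 39.1 expected counts. It was at least 14.9-fold higher on day 10 than on day 0 and at least 11.8-fold higher on day 14. Its L-type relative Cacna1c, the cardiac and smooth muscle channel, stayed between 20 and 46 counts, with 1.48-fold less on day 10 and an interval that included no change.

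The T-type pores, which open near the resting voltage, were the most abundant pores of this class by TPM on day 10. Cacna1g had 69.0, 33.2, 65, 130 and 91 counts, or 20.04 TPM on day 10, and its log2 change on day 10 was 0.44 in normalized counts (interval 0.01 to 0.89) and 2.40 in TPM, where the median of all genes was 1.09. Cacna1h had 27.6, 4, 28, 134 and 64.1 counts. It fell on day 2, to 7.24 normalized counts from 27.3, and was higher than day 0 on day 10, with a log2 change of 1.77 (interval 1.19 to 2.43).

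The neuronal presynaptic pores differed from each other. Cacna1a had 31, 17, 42, 55 and 37.7 counts, within 2-fold on day 10. Cacna1e had 1, 2, 5.89, 22 and 10, and Cacna1b at most 28 counts, and both were up on day 10. The skeletal muscle pore Cacna1s had at most 1 count in any library.

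Among the auxiliary calcium channel subunits, Cacna2d1 had the largest number of counts from day 5 on and Cacnb3 on days 0 and 2. It encodes the extracellular alpha2delta protein that brings the pore to the membrane and binds gabapentin. It had 53.9, 54, 248, 427 and 272 expected counts, with the libraries of days 5, 10 and 14 above those of days 0 and 2. It was 5.72-fold higher on day 10 than on day 0 (interval 4.29 to 7.72) and 4.56-fold higher on day 14. The other measurable alpha2delta gene, Cacna2d3, went the other way with 12, 4, 9, 5 and 2 counts.

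All 4 intracellular beta subunit genes were measurable. Cacnb3 had 144, 98, 215, 220 and 145 counts and stayed within 2-fold of day 0 on all later days. Cacnb1, the skeletal muscle form that is also found elsewhere, had 19, 27, 26, 28 and 51 counts and was 2.42-fold higher on day 14 than on day 0 (interval 1.41 to 4.35). Cacnb2 had 7, 8, 17, 20 and 3 counts, with a log2 change on day 14 of −1.11 in normalized counts, whose interval included no change, and of 0.21 in TPM. Cacnb4 had at most 13.3 counts, and its exons overlap those of A430018G15Rik, which had up to 4.03.

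Cacng7, a gamma subunit that also regulates AMPA receptors, was the only measurable gene of 8 in its class. It had 64, 15, 78, 47 and 31 counts. It was low on day 2, at 27.1 normalized counts against 63.3 on day 0, back at 68.3 on day 5 and 2.29-fold lower on day 14 than on day 0 (interval 1.47 to 3.63). The skeletal muscle gamma subunit Cacng1 had at most 1 count.

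**Figure D5:**
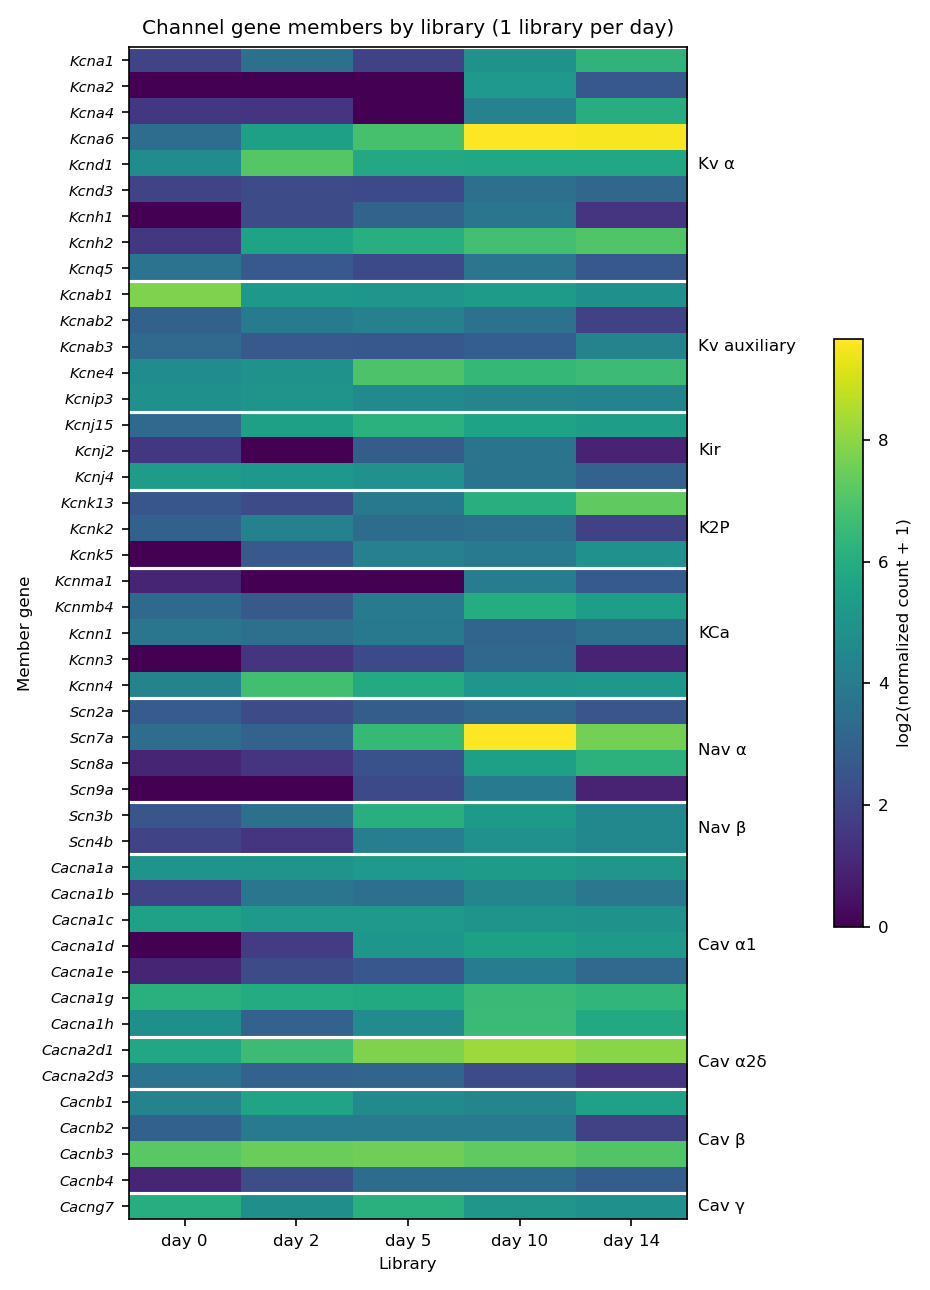
Normalized counts of 45 of the channel genes (rows, grouped by class as in the bars of summed TPM) in the 5 libraries (columns), coloured by log2 of the normalized count plus 1. Kcna6 on days 10 and 14 and Scn7a on day 10 are the brightest cells of their classes, with 804, 745 and 785 normalized counts, and Kcna2 is at 0 up to day 5.

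From day 10 to day 14, 5 genes rose and 10 fell with intervals that left out no change, beside 4% and 6.7% of all genes. The rises were Kcna1, Kcna4, Kcnab3, Kcnk13 and Cacnb1. The falls were Scn7a, Scn9a, Kcna2, Kcnab2, Kcnh1, Kcnj2, Kcnk2, Kcnma1, Kcnn3 and Cacnb2, and of these only Scn7a and Kcna2 had 50 or more expected counts on day 10. The change from day 10 to day 14 was thus not one of all channel genes together.

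Markers of several cell types changed over the same days, in different directions. Among all 13346 genes, 28.7% were up and 22.3% down on day 10, and 24.5% were up on day 14. Of the 10 Schwann cell and neural crest glia markers 9 were up on days 10 and 14, and their summed normalized counts were 138, 221, 1274, 7873 and 10975 from day 0 to day 14. Sox10, a transcription factor of the neural crest and its glia, had 7, 12, 320, 1478 and 2230 counts. Of the 12 neuron markers 7 reached 10 counts, Rbfox3 was at 0 in all libraries, 4 were up and 3 down on day 10, and the sum was 712, 416, 427, 336 and 407. Stmn2 and Map2 carried most of that sum on day 0, with 448 and 196, while Tubb3, the antigen of the TuJ antibody, had 22.1 on day 0 and 161 on day 14. Smooth muscle markers summed to 50793 before the medium change and to 500 on day 14, with 6 of 7 down on day 10. Skeletal muscle markers summed to 688 on day 0 and to 27.5 on day 14. Fibroblast markers had their lowest sum, 58042, on day 5 and their highest, 112780, on day 14. Of these 12 markers 5 were up and 3 down on day 10. Pericyte markers lay between 499 and 2229, with 1887 from Mcam alone on day 14, while Cspg4 had 849 on day 0 and 87.6 on day 14. Endothelial markers summed to 277 on day 0, mostly from Kdr, and to 14.4 on day 14. The part of these markers' cell types in the changes of the channel genes was not tested.

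In TPM the median log2 change of all genes was itself 1.09 on day 10 and 0.78 on day 14, with 52.9% of all genes up and 6.77% down on day 10. On that scale 33 of the 47 genes were up and 1 was down on day 10, with a median of 1.51. On day 14, 24 were up and 2 were down in TPM, beside 41.6% and 6.96% of all genes. Scaling by total counts alone gave a median of all genes of 0.60 on day 10, with 39.3% of them up and 14.5% down, and 31 channel genes up and 3 down. On day 14 total counts gave 29 channel genes up and 3 down, beside 32.4% and 13.6% of all genes. The falls were smaller on the TPM scale, with log2 changes on day 14 of −1.94 for Kcnab1, −1.22 for Kcnj4 and −0.29 for Cacng7, the last within 2-fold.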

How the data were processed

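The authors sequenced RNA of MEFs from 5 days of the 5C culture, 1 library each, with the TruSeq RNA kit, which does not keep the strand. The submitters' processing notes name Bowtie, RSEM and the mm10 genome, with versions and the gene annotation not given in the sources used here. For each gene and library the authors deposited expected counts, which are estimated read numbers without scaling, with TPM and FPKM values scaled for length and depth, and the gene length as other values. FPKM values were used for no result.

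Symbols and coordinates came from GENCODE M21 (GRCm38), where 27247 identifiers were found and 482 of 27729 were not. Expected counts were rounded to whole numbers for library sizes with TMM in edgeR 4.0.16 (R 4.3.3, factors 0.808 to 1.19) and for the intervals. Depth per library was 2253748 to 3890334 counts, and without molecular identifiers intervals and floors cover counting error only. The computations used Python 3.11.15 with scipy 1.17.1 and were tested on simulated data.

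The genes named reached 50 counts in at least 1 library, or are among the 2 largest changes of their class with 20 or more counts, or lie next to the limit of 10 counts, or belong to a fixed set of sodium channel and muscle genes. Others named were chosen after their values were seen. The channel genes, classes and marker lists were chosen with earlier results of these data known. The alternatives were DESeq2 1.42.0 size factors, total counts, TPM values, TMM without Gm42418 and Lars2, a pseudocount of 5, other count limits, a 4-fold threshold, 2-fold with an interval that leaves out no change and pore-forming subunits only. Centring by length and a limit of 10 counts in the earlier library were chosen after seeing the data. Some genes are not reported here.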

Additional observations from a re-analysis of the deposited data

How the results depend on the processing

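Depth limited most single genes, with a median interval half-width of 1.46 on the log2 scale on day 10, and 1 library per day leaves differences between cultures unmeasured. No paired analysis was possible because there was 1 library per day. In the numbers of genes up and down that follow, the values of the report were 16 and 5 on day 2, 25 and 3 on day 5, 28 and 3 on day 10, 26 and 8 on day 14, and 5 and 11 from day 10 to day 14. Of these numbers and the medians under alternatives, 115 moved less and 45 by more than 1.5 times or more than the counting interval. TPM values gave 7 up and 2 down on day 2, 1 down on day 5, 1 down on day 10, 2 down on day 14 and 2 up from day 10 to day 14. A pseudocount of 5 gave 8 up and 3 down on day 2, 15 up and 1 down on day 5 and 4 down on day 14. Total counts without TMM gave 3 down on day 14. With 30 or more counts, which left 28 genes, 9 were up and 3 down on day 2, 15 up on day 5 and 18 up on day 10. With the same limit 3 were down on day 14, and 4 were up and 2 down from day 10 to day 14. Without a count limit, over 110 genes, 32 were up and 10 down on day 2, 7 down on day 5, 45 up and 7 down on day 10, and 8 up and 19 down from day 10 to day 14. A 4-fold threshold gave 7 up and 1 down on day 2, 14 up and 1 down on day 5, 1 down on day 10, 15 up and 3 down on day 14, and 0 up and 6 down from day 10 to day 14. Intervals that leave out no change gave 6 up and 3 down on day 2, 16 up on day 5 and 4 down on day 14. Centring by length gave 6 down on day 10. With 10 or more counts on day 0, over 20 genes, the numbers up were 4, 7, 6 and 7 from day 2 to day 14, 5 were down on day 14, and the median on day 10 was 0.23. Fewer genes enter where a count limit is raised, and otherwise the cause was not tested. Among single genes, 284 values moved by less than their counting interval, 25 moved by more, and Cacnb2 on day 14 went from −1.11 to 0.21 in TPM.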

Other observations

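Genes that act beside the channels but carry other names were counted from a list of 57 channel partners and ion pumps, 38 of which reached 10 expected counts. On day 10, 20 of these were over 2-fold up, beside 28.7% of all genes, and 5 down, beside 22.3%. On day 14, 16 were up, beside 24.5%, and 5 down, beside 19.9%. A higher count later was required of those with fewer than 10 counts on day 0, such as Atp1b2 and Dpp6. Atp1b2, a beta subunit of the sodium pump known as a glial adhesion molecule, had 3, 6, 53, 382 and 147 expected counts from day 0 to day 14. It was thus highest on day 10. Dpp6, an auxiliary subunit of A-type potassium channels, had 2, 2, 5, 22 and 55 counts. Jph2, which joins the plasma membrane to the sarcoplasmic reticulum in muscle, had 728, 119, 77, 56 and 30 counts, and Orai1, the pore of store-operated calcium entry, had 146, 93, 123, 76 and 68.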
